A study of Mus musculus with 6 samples.

Results

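Triglyceride is built from glycerol 3-phosphate by a chain of acyltransferases and phosphatases, and 10 genes of this route were followed in the interscapular brown fat of newborn mice: Gpd1, Gpam, Agpat1, Agpat2, Agpat3, Lpin1, Lpin2, Lpin3, Dgat1 and Dgat2. The genes were taken by symbol from a table of 19241 genes, and all 10 were listed and passed the filter on low values. The values are FPKM (fragment counts corrected for transcript length and library size) from bulk RNA-seq of the total depot. They come from 3 libraries called WT, whose genotype is given as Fstl1-floxed, and 3 called KO, given as Myf5-Fstl1 KO. Fstl1 encodes the secreted glycoprotein follistatin-like 1, and Myf5 marks precursors of skeletal muscle and of much of the interscapular brown fat. The labels name no Cre allele and do not say whether the floxed mice carried one. The depot also holds cells outside the Myf5 lineage, which a deletion in that lineage does not reach. The labels give the stage as newborn and say nothing of litter or sex. They also do not say that the libraries come from separate animals, so the p-values measure the spread between these libraries. The title of the series speaks of atrophy of brown fat, and the question here is how the transcripts of the triglyceride route differ between the groups.

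Glycerol 3-phosphate, made by glycerol-3-phosphate dehydrogenase from a glycolytic intermediate or by glycerol kinase from glycerol, is acylated by a GPAT enzyme to lysophosphatidate. An AGPAT enzyme adds another acyl chain to give phosphatidate, a lipin removes the phosphate to give diacylglycerol, and a DGAT enzyme adds the last acyl chain. Brown adipocytes keep the product in many small droplets and burn its fatty acids for heat, and loss of AGPAT2 in humans and mice causes a generalized lack of adipose tissue. Phosphatidate and diacylglycerol are also the branch points towards the membrane phospholipids.

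The estimated depth was 13900000 to 15100000 reads per library. Fstl1 was at 54.4 to 130.04 FPKM in WT and at 7.93 to 13.1 FPKM in KO, without overlap. Xist, the RNA of the inactive X chromosome, was at 44.8 to 85.5 FPKM in WT and at 0.05 to 0.92 in KO, and the Y-linked gene Eif2s3y was at 0 to 0.08 FPKM in WT and at 83.7 to 99.3 in KO. Genotype and sex therefore cannot be told apart in any difference given here. Among cell markers, the summed FPKM of 12 adipocyte markers was 19819 to 23402 in WT and 20907 to 22306 in KO. The sum of 10 brown adipocyte markers was 7401 to 11600 in WT and 5629 to 7561 in KO. For 19 skeletal muscle markers it was 1620 to 2368 in WT and 423 to 2112 in KO, with the low value in KO replicate 1. The sum of 12 macrophage markers was 145 to 213 in WT and 205 to 279 in KO, and that of 9 red cell markers was 3385 to 14404 in WT, highest in replicate 3, and 3077 to 3969 in KO. No marker of these 5 lists was at 0 in any library.

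Of the 10 genes, Agpat2 alone passed the test, and it was lower in KO. KO held 21.7% of the WT mean of Agpat2, while Agpat3, which catalyses the same step, stood at 99.7% and Agpat1 at 60.7%. Lpin1 was higher in every KO library, at 303% of the WT mean, and did not pass. Across all 13331 genes tested with limma, 2.21% passed an adjusted p of 0.05, 1.01% lower and 1.21% higher in KO. The values of the groups did not overlap for 3 of the 10 genes (Agpat1 and Agpat2 lower, Lpin1 higher), against 24.9% of all genes tested (11.4% lower, 13.6% higher), so that share is near the background. The fold change was below 0 for 7 of the 10, against 48.4% of all genes tested, and their median log2 fold change was −0.34, against 0.01. An unadjusted p under 0.05 was found for 4 of the 10 (Gpd1, Agpat1 and Agpat2 lower, Lpin1 higher), against 19.2% of all genes tested. In bulk tissue, fewer cells of a type and less RNA per cell cannot be told apart. The sum of brown adipocyte markers was lower in KO replicates 1 and 2 than in any WT library, and that of adipocyte markers overlapped. In WT the brown sum was mostly Ucp1, which was at 4366 to 6255 FPKM in WT and 1695 to 3592 in KO (limma, adjusted p 0.0804). The adipocyte sum was mostly Fabp4, at 14000 to 17389 FPKM over the 6 libraries, and single markers moved apart from it. Of the 12 adipocyte markers, 2 passed, both lower in KO, against 1.01% called lower over all genes tested. Plin1, a coat protein of lipid droplets, fell to 37.9% of its WT mean (limma, adjusted p 0.0267). Lep, the hormone leptin, was low in all libraries, at 0.91 to 2.22 FPKM in WT and 0.06 to 0.13 in KO. On log2(FPKM + 1) the fold change of Lep was −1.07 (limma, adjusted p 0.0423). Adipoq stood at 118% of its WT mean and did not pass. Of the 10 brown markers, 5 did not overlap, all lower in KO, against 11.4% lower over all genes tested. Elovl3, a fatty acid elongase, fell to 17.6% (limma, adjusted p 0.0151) and Otop1 to 35.2% (0.0243). These were the 2 that passed, against 1.01% called lower over all genes tested. Ucp1, Prdm16 and Ebf2 stood at 48.9%, 46.0% and 44.4% and did not pass. The other brown markers overlapped, among them Cidea at 108% and Cox8b at 98.6%, the most abundant after Ucp1. All 12 macrophage markers had a log2 fold change above 0, with a median of 0.41, and 0 passed. Of these 12, 7 did not overlap, all higher in KO, against 13.6% higher over all genes tested. The part of these shifts in the members' values was not tested.

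The 3 members whose groups did not overlap are shown with the 250 bases before a transcription start, as RefSeq places it on GRCm38.p6, the same assembly as the mm10 build of the submitters' processing notes. The RefSeq table held such windows for 7 of the 10 genes, and Gpd1, Dgat1 and Dgat2 were not among them. Sequences run 5′ to 3′ on the strand of the gene, and capitals mark matches on either strand to any of 6 short motifs.
Agpat2, minus strand, chr2:26604418-26604667: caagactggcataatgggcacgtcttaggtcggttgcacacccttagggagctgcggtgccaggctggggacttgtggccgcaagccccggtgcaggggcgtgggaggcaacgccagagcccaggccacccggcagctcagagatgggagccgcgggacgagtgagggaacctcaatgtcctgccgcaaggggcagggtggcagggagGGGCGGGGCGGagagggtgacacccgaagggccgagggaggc
Agpat1, plus strand, chr17:34605611-34605860: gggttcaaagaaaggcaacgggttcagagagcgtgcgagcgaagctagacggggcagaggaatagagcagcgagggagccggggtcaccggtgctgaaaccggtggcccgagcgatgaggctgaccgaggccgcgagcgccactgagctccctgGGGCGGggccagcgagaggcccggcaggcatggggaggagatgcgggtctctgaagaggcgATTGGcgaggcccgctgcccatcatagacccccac
Lpin1, minus strand, chr12:16610967-16611216: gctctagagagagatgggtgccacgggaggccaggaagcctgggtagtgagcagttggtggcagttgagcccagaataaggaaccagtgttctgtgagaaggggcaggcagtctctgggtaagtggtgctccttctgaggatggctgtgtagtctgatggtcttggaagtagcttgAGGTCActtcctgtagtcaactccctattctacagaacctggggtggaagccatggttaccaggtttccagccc

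The motifs searched were the GC box GGGCGG, the nuclear receptor motif AGGTCA, the E-box CACGTG and the CCAAT box CCAAT. The spaced patterns TTGCNNAA (of the C/EBP type) and ACANNNTGT (of the glucocorticoid receptor type) were also searched. The Agpat2 window held overlapping GC boxes that begin 42 and 37 bases before the start, and 69.2% of its bases were G or C, against a median of 52.4% over 32851 windows. The Agpat1 window, at 67.6% G or C, held a GC box 96 bases and a reversed CCAAT box 35 bases before the start. The Lpin1 window, at 54.8% G or C, held a single AGGTCA motif 74 bases before the start. The GC box occurred in 32.7% of all windows, the CCAAT box in 33.8% and the AGGTCA motif in 14.02%. The Lpin1 and Agpat1 windows lie inside the bounds of their genes, so these starts are not the outermost ones of those genes, and the Agpat1 window is the more upstream of the 2 that the table held.

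**Figure D1:**
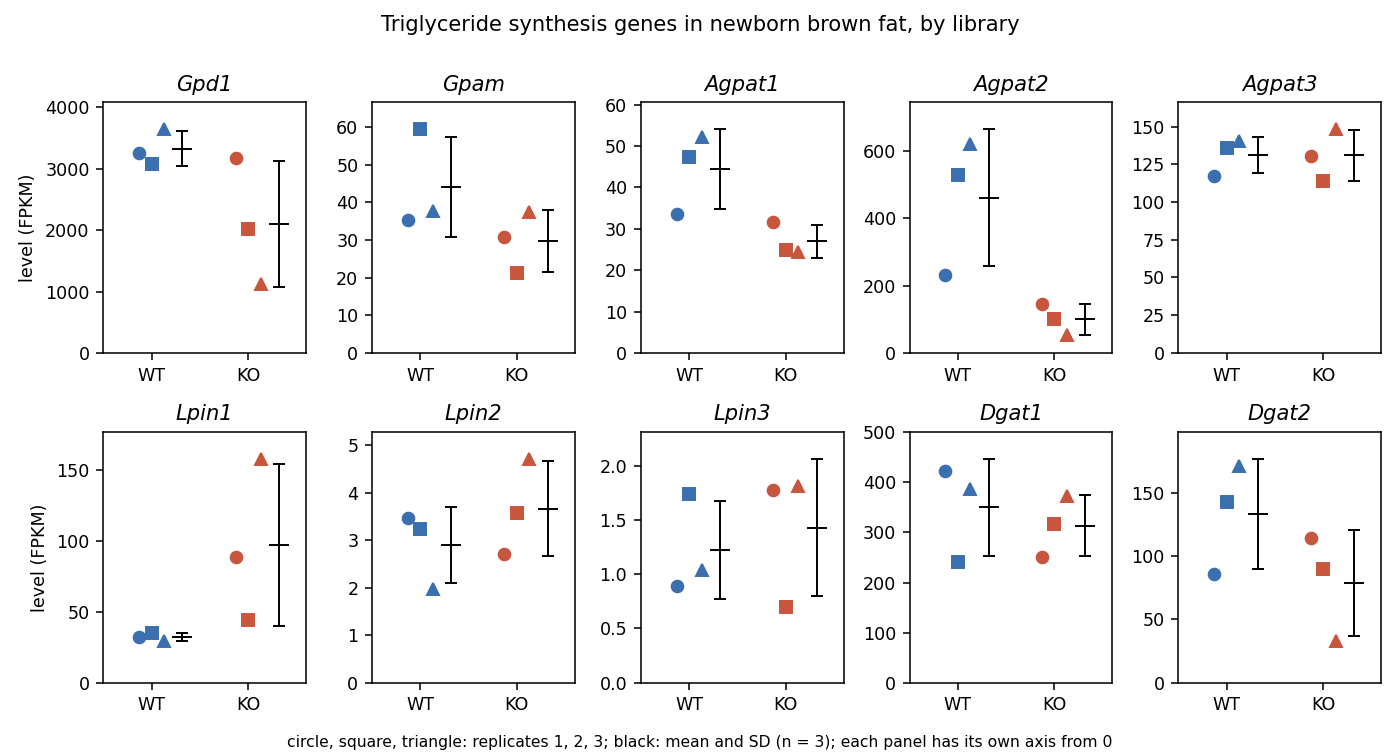
Level in FPKM (vertical axis, from 0 in each panel) of the 10 genes in WT and KO, with 1 point per library (circle, square and triangle for replicates 1, 2 and 3) and the mean and SD of 3 libraries in black. Agpat2 and Agpat1 lie lower and Lpin1 lies higher in every KO library than in any WT library, and the groups overlap for the other 7 genes.

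In WT the most abundant member was Gpd1, with a mean of 3329 FPKM, followed by Agpat2 with 461, Dgat1 with 350.5, Dgat2 with 133 and Agpat3 with 131. Agpat1, Gpam and Lpin1 had means of 44.4, 44.2 and 32.04 FPKM, and Lpin2 and Lpin3 had means of 2.89 and 1.22. In this order the WT ranges of neighbours overlapped for Agpat2 and Dgat1, for Dgat2 and Agpat3, and for Agpat1 and Gpam, and not for the other neighbours. By the KO means Agpat2 stood at rank 4 rather than 2, and Lpin1 at rank 5 rather than 8. FPKM is a value per length, so these levels can be set beside each other.

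Gpd1, the cytosolic dehydrogenase that makes glycerol 3-phosphate (chr15:99717587-99725014, GRCm38), had WT values of 3257, 3084 and 3645 FPKM. The KO values were 3172, 2016 and 1128 FPKM, and values per library are always given in the order of replicates 1, 2 and 3. KO replicates 2 and 3 lay under every WT library, and KO replicate 1 lay within the WT range. The means were 3329 ± 287 FPKM in WT and 2105 ± 1025 FPKM in KO (SD, n = 3 each). On log2(FPKM + 1), used here and below, its log2 fold change came to −0.78 (SE 0.32; limma, adjusted p 0.231), and Gpd1 did not pass. Without KO replicate 3 it was −0.39, and without KO replicate 1 it was −1.14 (limma, adjusted p 0.0867). Its 95% interval, −1.50 to −0.06, is for this gene alone, without adjustment for the number of genes tested, as are the intervals below. Gpd1 shares 384 nt of exon with Gm16537 on the opposite strand in GENCODE vM21.

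Around Gpd1, the other genes of glycerol phosphate supply were measured from a list of 11, of which 8 were tested and 0 passed in limma. Of these 8, 5 had an unadjusted p under 0.05 (4 lower, 1 higher), against 19.2% of all genes tested (8.60% lower, 10.6% higher), and the median log2 fold change was −0.37. Slc2a4, the insulin-responsive glucose transporter, was at 61.6, 59.6 and 80.5 FPKM in WT and 52.6, 28.7 and 15.6 in KO (log2 fold change −1.18, limma adjusted p 0.123). Gk, the glycerol kinase, was at 162, 93.8 and 78.4 FPKM in WT and 55.0, 44.5 and 78.1 in KO (−0.87, limma adjusted p 0.150). Both were lower in every KO library than in any WT library, although the lowest WT value of Gk and its highest KO value differed by less than 1 FPKM. Slc2a4 passed without KO replicate 1, at −1.61 (limma adjusted p 0.0424), and came to −0.76 without KO replicate 3. Gk came to −0.57 without WT replicate 1. Gpd2, the mitochondrial dehydrogenase that uses glycerol 3-phosphate, had means of 74.3 ± 14.5 FPKM in WT and 46.4 ± 14.8 in KO (SD, n = 3 each). Pck2, the mitochondrial phosphoenolpyruvate carboxykinase, had a log2 fold change of 0.51 (limma adjusted p 0.190), and the cytosolic enzyme Pck1 was at 285 to 565 FPKM in WT and 390 to 539 FPKM in KO.

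Gpam, the mitochondrial GPAT (chr19:55067635-55127319), was at 35.3, 59.4 and 37.8 FPKM in the WT libraries, against 30.8, 21.1 and 37.4 in the KO libraries. The groups overlapped, since KO replicate 3 lay above WT replicate 1. The log2 fold change came to −0.55 (SE 0.25), and the interval was −1.12 to 0.02 (limma, adjusted p 0.276). It came to −0.32 when WT replicate 2 was left out and to −0.33 when KO replicate 2 was.

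The same step is also catalysed in the endoplasmic reticulum by Gpat3, listed in the table under its older symbol Agpat9, and by Gpat4. Gpat3 was at 32.3, 30.3 and 29.7 FPKM in WT and 21.97, 26.5 and 18.2 in KO (log2 fold change −0.46, limma adjusted p 0.168). Gpat4 had WT values of 92.4, 58.7 and 102 FPKM and KO values of 147, 99.0 and 170 FPKM (log2 fold change 0.71, limma adjusted p 0.182), and its groups overlapped. Of the summed level of these 3 genes, Gpat4 made up 52.5% ± 11.3 in WT and 72.2% ± 4.12 in KO, and Gpam 28.1% ± 10.3 and 15.5% ± 1.08 (SD, n = 3 each). The summed level was 159 ± 10.7 FPKM in WT and 191 ± 40.4 in KO. Gpat4 was thus the most abundant GPAT transcript except in WT replicate 2, where Gpam, at 40.04% of the sum, lay level with it at 39.5%.

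Agpat2 (chr2:26593057-26604417, minus strand) encodes the AGPAT whose loss causes congenital lipodystrophy. Its values were 232, 529 and 621 FPKM in the WT libraries and, in the same order of replicates, 146, 101 and 53.5 FPKM in the KO libraries. Every KO library lay under the lowest WT library, WT replicate 1, which itself was well under the other WT libraries. The means were 461 ± 203 FPKM in WT and 100.1 ± 46.1 FPKM in KO (SD, n = 3 each). The log2 fold change came to −2.18 (SE 0.42), within −3.14 to −1.23, at an adjusted p of 0.0417 (limma). The fold change was −2.62 when WT replicate 1 was left out (limma, adjusted p 0.0312) and −2.51 when KO replicate 1 was (0.0442). The call ended when any of the other 4 libraries was left out. Leaving out a WT library, replicate 2 or 3, gave −2.03 (limma, adjusted p 0.173) or −1.91 (0.141). Leaving out KO replicate 2 gave −2.25 (limma, adjusted p 0.0980), and leaving out KO replicate 3 gave −1.80 (0.0953). It also ended without the filter on low values (limma, adjusted p 0.118).

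Agpat2 shares 64 nt of exon sequence with Egfl7 on the opposite strand in GENCODE vM21, and the sources used here do not say whether counting used strand. Egfl7, an endothelial gene, was at 53.8 to 82.2 FPKM in WT and 46.8 to 70.5 FPKM in KO, with a log2 fold change of −0.14 (limma, adjusted p 0.764).

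Agpat1 (chr17:34604195-34613449), a broadly expressed AGPAT, was at 33.6, 47.4 and 52.3 FPKM in the WT libraries, against 31.6, 24.8 and 24.5 in the KO libraries. The groups did not overlap, but WT replicate 1 and KO replicate 1 lay close together. Its log2 fold change came to −0.69 (SE 0.19), and the interval was −1.12 to −0.25 (limma, adjusted p 0.102), and without WT replicate 1 it passed, at −0.87 (adjusted p 0.0418). It shares 101 nt of exon with Egfl8 on the opposite strand, which was at no more than 2.02 FPKM in any library.

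Agpat3 (chr10:78269174-78352497) was at 117, 136 and 141 FPKM in the WT libraries, against 130.2, 114 and 148 in the KO libraries. The ranges covered each other, and the log2 fold change was −0.01 with an interval of −0.35 to 0.33 (limma, adjusted p 0.987). The relatives Agpat4 and Agpat5 had log2 fold changes of 0.04 and −0.03 (limma, adjusted p 0.928 and 0.935).

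Agpat2 made up 60.6%, 74.3% and 76.3% of the summed FPKM of Agpat1, Agpat2 and Agpat3 in WT replicates 1, 2 and 3, and 47.4%, 42.2% and 23.6% in KO replicates 1, 2 and 3. Agpat3 made up 17.3% to 30.7% in WT and 42.4% to 65.5% in KO. Agpat2 was the most abundant of the 3 in each WT library and in KO replicate 1, and Agpat3 in KO replicates 2 and 3. The Agpat2 share differed by −32.7 percentage points (exact two-sided permutation test p 0.1, the smallest that 3 against 3 can give), and by −37.6 to −25.6 points when any library was left out. The summed level of the 3 genes was 636 ± 225 FPKM in WT and 258 ± 43.4 FPKM in KO (SD, n = 3 each).

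**Figure D2:**
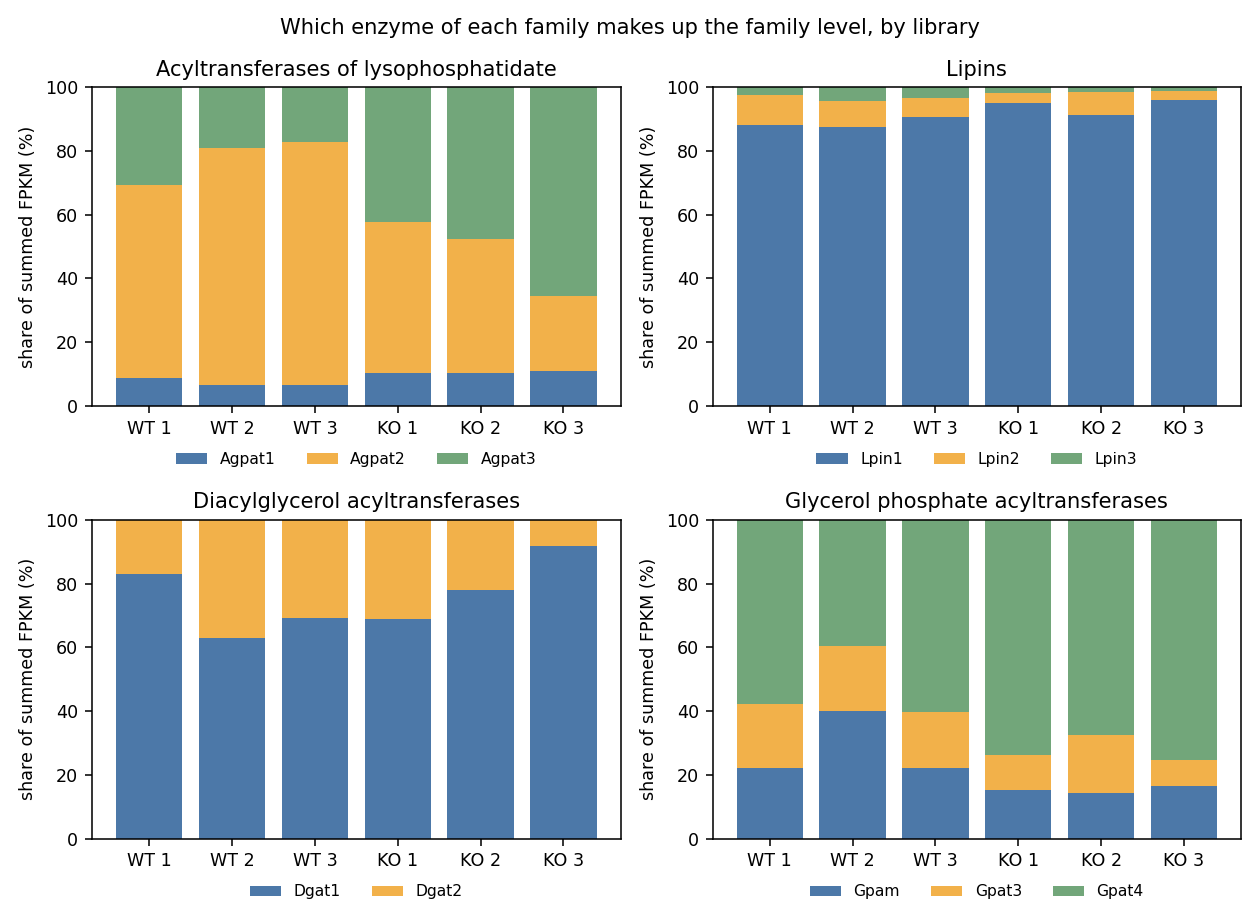
Share of the summed FPKM of each enzyme family (vertical axis, percent) held by each gene, for the 6 libraries on the horizontal axis. The Agpat2 share runs from 60.6% to 76.3% in WT and from 23.6% to 47.4% in KO, while Lpin1 holds 87.5% to 96.04% of the lipin sum in all libraries.

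Lpin1 (chr12:16535669-16653903, minus strand) encodes lipin 1, the main phosphatidate phosphatase of adipose tissue and muscle, which also acts in the nucleus as a transcriptional coactivator. Its values were 32.3, 34.8 and 29.04 FPKM in the WT libraries, against 88.9, 44.3 and 158 in the KO libraries. The WT libraries lay close together and all KO libraries lay above them, KO replicate 3 highest and KO replicate 2 nearest to WT. The means were 32.04 ± 2.87 FPKM in WT and 97.05 ± 57.3 FPKM in KO (SD, n = 3 each). The log2 fold change came to 1.39 (SE 0.37), and the interval was 0.54 to 2.24 (limma, adjusted p 0.0918). Lpin1 did not pass with all libraries. Without KO replicate 2 it passed, at 1.86 (adjusted p 0.0314), and without KO replicate 3 the fold change was 0.95.

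Lpin2 (chr17:71183532-71249818), the lipin prominent in liver, was at 3.46, 3.24 and 1.98 FPKM in WT and 2.71, 3.57 and 4.71 in KO (log2 fold change 0.26, limma adjusted p 0.551). Lpin3 (chr2:160880670-160906000), the third family member, was at 0.89, 1.74 and 1.04 FPKM in WT and 1.78, 0.70 and 1.81 in KO (0.11, limma adjusted p 0.845). The groups overlapped in both, and these low values rest on an estimated 121 to 293 reads for Lpin2 and 36.02 to 93.1 reads for Lpin3. For the other 8 genes the estimate was at least 700.1 reads in every library.

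Lpin1 was 88.1%, 87.5% and 90.6% of the lipin sum in WT replicates 1, 2 and 3 and 95.2%, 91.2% and 96.04% in KO, a difference of 5.42 percentage points (exact two-sided permutation test p 0.1, the smallest possible). The lipin sum itself was 36.2 ± 3.86 FPKM in WT and 102.1 ± 58.5 FPKM in KO (SD, n = 3 each).

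Of 19 genes that control lipins or turn over phosphatidate and diacylglycerol, 17 were tested, and 0 passed in limma. Of the 17, 5 had an unadjusted p under 0.05 (4 lower, 1 higher), against 19.2% of all genes tested, and the median log2 fold change was −0.01. Ctdnep1, the catalytic subunit of the phosphatase that dephosphorylates lipins, was at 59.6, 70.1 and 69.6 FPKM in WT and 45.1, 46.9 and 38.4 in KO, without overlap (−0.60, limma adjusted p 0.0674). Its partner Cnep1r1 had a log2 fold change of 0.31 (limma adjusted p 0.397). Among phosphatases of the cell surface that also act on phosphatidate, Plpp3 had a log2 fold change of −0.52 and Plpp1 of −0.49 (limma adjusted p 0.190 and 0.228). Dgkd, a diacylglycerol kinase that runs the lipin step in reverse, was at 18.3 to 20.1 FPKM in WT and 24.4 to 25.7 in KO, without overlap (0.36, limma adjusted p 0.184).

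Dgat1 (chr15:76502012-76512021), the acyltransferase that re-esterifies fatty acids released by lipolysis among others, was at 423, 241 and 387 FPKM in the WT libraries, against 252, 316 and 373 in the KO libraries. The KO range lay inside the WT range. The log2 fold change was −0.14 with an interval of −0.67 to 0.40 (limma, adjusted p 0.802).

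Dgat2 (chr7:99153663-99182713), an unrelated protein that acts on newly made fatty acids, was at 86.05, 143 and 172 FPKM in the WT libraries, against 114, 89.5 and 32.9 in the KO libraries. The groups overlapped, because WT replicate 1 lay below KO replicates 1 and 2. The log2 fold change came to −0.87 (SE 0.43), and the interval was −1.84 to 0.10 (limma, adjusted p 0.313). Without KO replicate 3 the fold change was −0.34.

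Dgat1 was the more abundant DGAT in each library. Dgat2 made up 16.9%, 37.2% and 30.7% of their sum in WT and 31.3%, 22.1% and 8.09% in KO (exact two-sided permutation test p 0.5). The summed level of the pair was 484 ± 90.2 FPKM in WT and 393 ± 23.01 FPKM in KO (SD, n = 3 each).

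**Figure D3:**
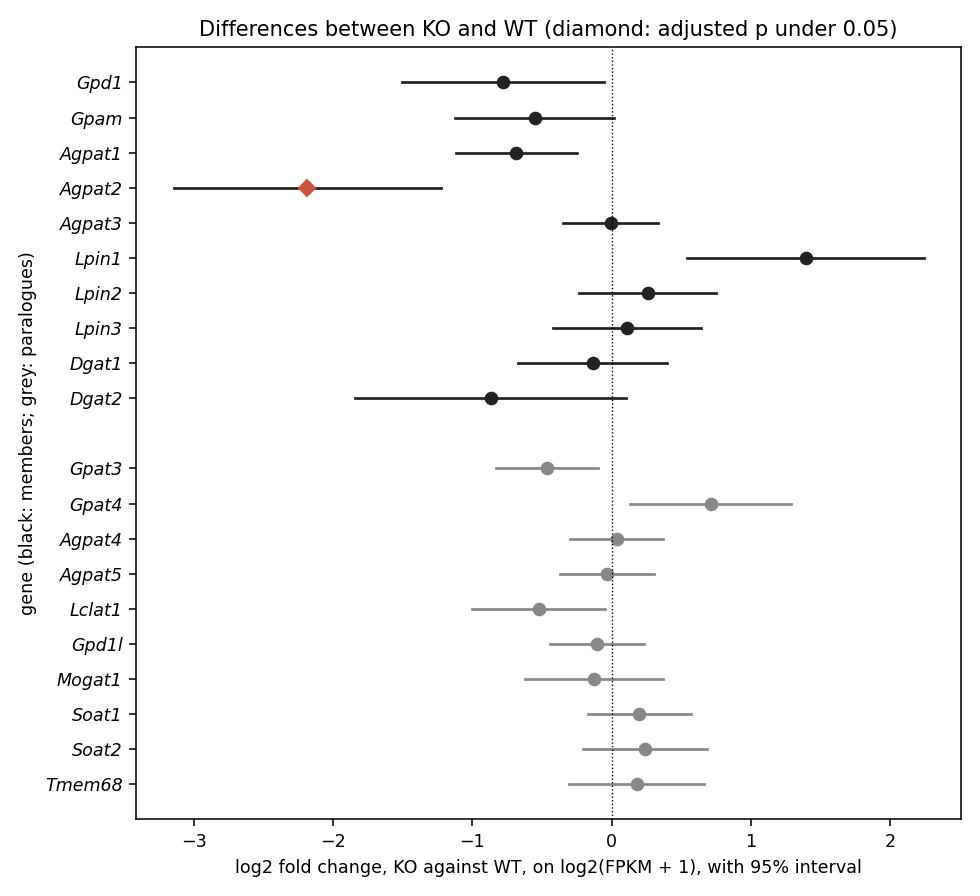
Log2 fold change of KO against WT on log2(FPKM + 1) (horizontal axis) with its unadjusted 95% interval, for the 10 genes in pathway order (black) and for 10 tested paralogues (grey). Agpat2 at −2.18 is the single gene marked as passing an adjusted p of 0.05; Lpin1 at 1.39 lies on the other side of 0.

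Among the paralogues of the members, 13 of 15 listed genes were in the table, 10 were tested and 0 passed in limma, with a median log2 fold change of 0.00. Of these 10, 3 had an unadjusted p under 0.05 (2 lower, 1 higher), against 19.2% of all genes tested. Besides Gpat3 and Gpat4, Lclat1, which remodels cardiolipin, had values of 15.2 to 16.4 FPKM in WT and 7.32 to 13.15 FPKM in KO (−0.52, limma adjusted p 0.224), and −0.28 without KO replicate 2. Soat2, a cholesterol acyltransferase related to Dgat1, was at 0.66 to 1.64 FPKM in WT and 1.28 to 1.74 in KO. Mogat1, which can make diacylglycerol from monoacylglycerol and so bypass the route, was at 0.71 to 1.56 FPKM in WT and 0.74 to 1.61 FPKM in KO.

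In pathway order, KO replicate 3 stood out from the other KO libraries. It was the lowest of all 6 libraries for Gpd1, Agpat1, Agpat2 and Dgat2 and the highest for Agpat3, Lpin1, Lpin2 and Lpin3. For some genes this rank was a near tie. Agpat1 was at 24.52 FPKM in KO replicate 3 and 24.80 in KO replicate 2, and Lpin3 at 1.81 in KO replicate 3 and 1.78 in KO replicate 1. The rest of this paragraph describes single libraries. The deviation of KO replicate 3 from the mean over 6 libraries, in log2(FPKM + 1), was −1.87 for Agpat2, −1.50 for Dgat2, −1.17 for Gpd1 and 1.57 for Lpin1. KO replicate 1 stood nearest to WT for Gpd1, Agpat2, Agpat1 and Dgat2, with deviations of 0.32, −0.44, −0.11 and 0.27. KO replicate 1 is also the library with the low muscle marker sum of 423 FPKM, and the part of muscle content in these values was not tested. In WT, replicate 3 was the highest of all libraries for Gpd1, Agpat1, Agpat2 and Dgat2, and it also held the highest red cell marker sum.

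**Figure D4:**
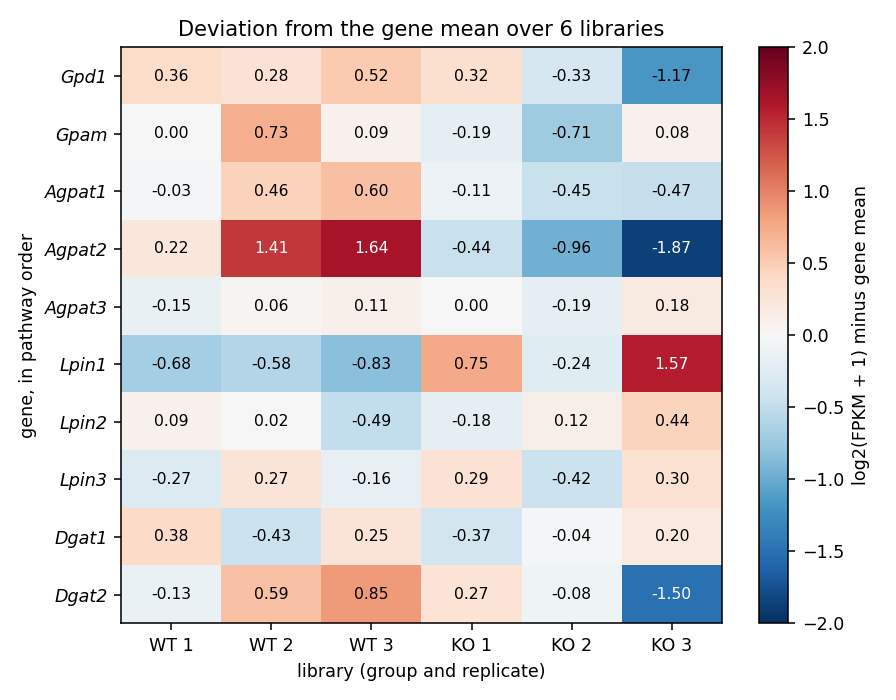
Deviation of log2(FPKM + 1) from the mean of each gene over 6 libraries (colour and printed value), with the genes in pathway order as rows and the libraries as columns. Agpat2 runs from 1.64 in WT replicate 3 to −1.87 in KO replicate 3, and Lpin1 from −0.83 to 1.57 in the same libraries.

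By root mean square difference of these deviations over the 6 libraries, the genes most like Agpat2, out of 12129 with a mean of at least 1 FPKM, were Tmem171 (0.25), Hdhd3 (0.28), Phlda3 (0.30), Adrbk2 (0.41) and Nat8l (0.45). They were chosen for this likeness, so a difference between the groups and an order of libraries like those of Agpat2 are no further result. Tmem171, which encodes a membrane protein, was at 11.8, 19.3 and 29.1 FPKM in WT and 6.05, 6.07 and 1.77 in KO. Phlda3 was at 31.4, 45.1 and 47.5 FPKM in WT and 16.4, 11.95 and 4.30 in KO. Nat8l, the enzyme that makes N-acetylaspartate, was at 11.9, 21.5 and 15.3 FPKM in WT and 6.74, 5.41 and 2.64 in KO.

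Of 14 transcription factors known to act on genes of this route or on adipocyte lipid metabolism, all were tested. Klf15, a Krüppel-like factor induced by glucocorticoids and fasting, was higher in KO and passed, and 0 were called lower. Klf15 was at 2.56, 4.71 and 2.57 FPKM in the WT libraries, against 15.7, 11.2 and 40.6 in the KO libraries (log2 fold change 2.29, SE 0.41, limma adjusted p 0.0337). Its KO libraries stood in the same order as those of Lpin1, and also of Gpat4 and Pck1, and a link of any of these to Klf15 was not tested. The call ended when KO replicate 1 (2.43, limma adjusted p 0.0594) or any WT library was left out: 2.17 (0.0600) for WT replicate 1, 2.51 (0.0903) for replicate 2 and 2.18 (0.132) for replicate 3. It also ended without the filter on low values (limma adjusted p 0.106). The median log2 fold change of the 14 was −0.47, with 10 below 0, against 48.4% of all genes tested. An unadjusted p under 0.05 was reached by 6 of the 14 (4 lower, 2 higher), against 19.2%. Srebf1, a driver of lipogenic genes, was at 34.4, 41.9 and 42.8 FPKM in WT and 26.0, 25.5 and 10.97 in KO (−0.99, limma adjusted p 0.118). Cebpb, an early adipogenic factor, had a log2 fold change of −0.95 (limma adjusted p 0.0674) and the mitochondrial regulator Esrra of −0.70 (limma adjusted p 0.0813). The groups of these 3 did not overlap, and they did not pass. Among the 14, values did not overlap for 4 lower in KO and 1 higher, against 11.4% lower and 13.6% higher over all genes tested. Cebpb passed without KO replicate 1, at −1.21 (limma adjusted p 0.0326), and with the filter at a mean of 5 FPKM (0.0495). Srebf1 came to −0.60 without KO replicate 3. Pparg, the master factor of adipocytes, was at 163 to 226 FPKM in WT and 185 to 262 FPKM in KO (0.20, limma adjusted p 0.604).

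The branch from phosphatidate and diacylglycerol to phospholipids held 21 listed genes, of which 19 were tested and 0 passed in limma, with a median log2 fold change of −0.09. An unadjusted p under 0.05 was reached by 4 of the 19 (2 lower, 2 higher), a share near the 19.2% of all genes tested. Cds2, which turns phosphatidate into CDP-diacylglycerol, was at 9.57 to 10.4 FPKM in WT and 13.3 to 14.7 FPKM in KO (0.49, limma adjusted p 0.0952). Cdipt, the phosphatidylinositol synthase that uses this product, was at 20.4 to 24.9 FPKM in WT and 11.7 to 16.1 FPKM in KO (−0.63, limma adjusted p 0.0917). Chka, the first enzyme of phosphatidylcholine synthesis, had a log2 fold change of 0.43 (limma adjusted p 0.160), and Pcyt2, which controls phosphatidylethanolamine synthesis, one of −0.48 (0.228). Pcyt2 passed without WT replicate 1, at −0.70 (limma adjusted p 0.0418). In all, 1 of the 68 tested genes of the 5 wider lists passed, against 2.21% of all genes.

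**Figure D5:**
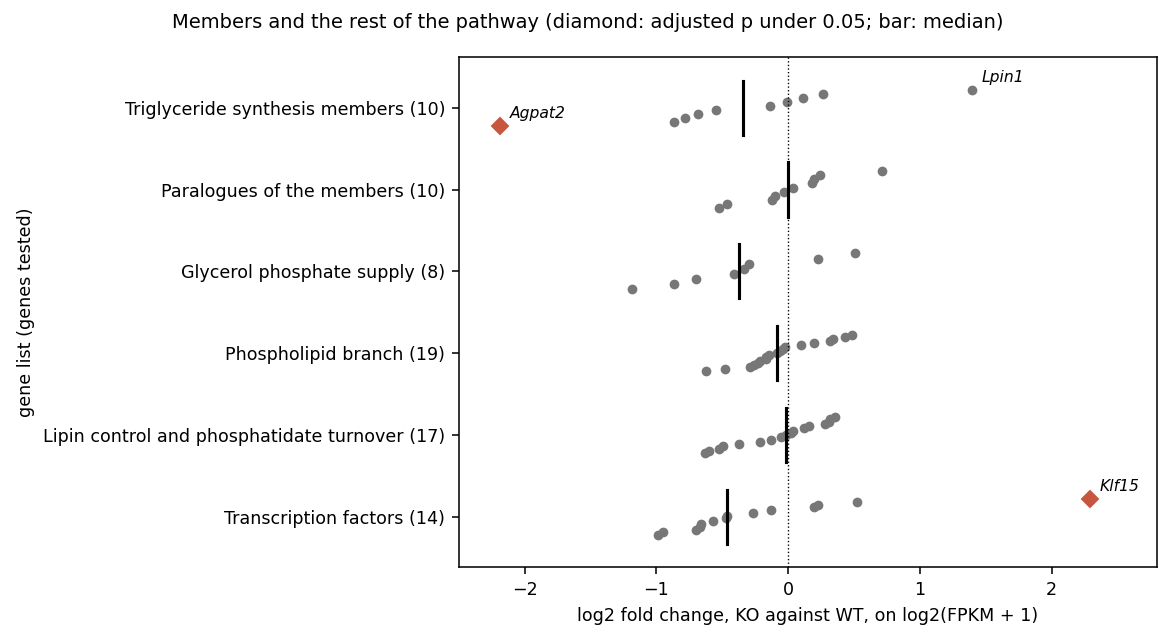
Log2 fold change of KO against WT on log2(FPKM + 1) (horizontal axis) for each tested gene of the members and of 5 wider lists (vertical axis), with the median of each list as a bar. Agpat2 and Klf15, marked as diamonds, pass an adjusted p of 0.05, and the medians run from −0.47 to 0.00.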

How the data were processed

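Bulk RNA-seq of newborn interscapular brown fat was analysed from 1 deposited table with 3 WT and 3 KO libraries, grouped and numbered by their titles. The values are FPKM made by the authors, per the file headers, and are rounded to 2 decimals. HISAT2 2.0.4, Bowtie2 2.2.5, DESeq2 and mm10 are named, without a role, in the submitters' processing notes. The counting tool, annotation release and strand handling are not given in the sources used here. Multi-transcript genes have a single value, so isoforms could not be separated.

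Values were transformed as log2(FPKM + 1), which understates changes of low genes, and those with a mean over the 6 libraries of 0.5 FPKM or more were tested with limma 3.58.1 in R 4.3.3 (lmFit, eBayes with trend, no covariates). P-values were adjusted over all tested genes by the Benjamini-Hochberg method, with a threshold of 0.05. The fit was tested on simulated data. Shares within families were compared by exact permutation. The members and lists were chosen with earlier results of these data known. The genes named were all members and, in each wider list, those that passed and up to 4 with the smallest p. The 5 nearest profiles to the member with the smallest p were also named. Fstl1, Xist and Eif2s3y were named as checks, and Ucp1 and Adipoq as levels of the tissue. Of the other genes, Pck1, Agpat4, Agpat5, Mogat1, Cnep1r1, Pparg, Egfl7 and Egfl8 were chosen for their role or position after the values were seen. The single markers Fabp4, Plin1, Lep, Elovl3, Otop1, Prdm16, Ebf2, Cidea and Cox8b were also chosen after the values were seen. A list of 7 Schwann cell markers summed to 73.5 to 78.5 FPKM in WT and 59.6 to 85.1 in KO, 8 endothelial markers to 505 to 629 and 507 to 593, and 8 of 9 epidermal markers to 4.90 to 5.48 and 6.59 to 10.2, with Krt5, Krt14, Krt1, Krt15 and Lor at 0 in at least 1 library.

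Depth was estimated from low values of single-transcript genes of 500 to 1300 nt, with a length offset of 50 nt. The depth taken was the one at which these values lay closest to whole reads. Of these values, 75.4% to 81.03% per library came out whole, to a tolerance of 0.2 reads. Because the depth was chosen on the same values, this share is no separate check of it. Transcript lengths came from GENCODE vM21. Positions and promoter windows came from RefSeq on GRCm38.p6. Figures were drawn with matplotlib 3.10.9.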

Additional observations from a re-analysis of the deposited data

How the results depend on the processing

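Across 13 alternatives, Gpd1, Gpam, Agpat1, Agpat2, Lpin1, Lpin2 and Dgat2 kept their direction (12 alternatives for Lpin2, which the filter at a mean of 5 FPKM removed). Agpat2 passed in 7 of 13, with log2 fold changes of −2.62 to −1.80 and adjusted p (limma) of 0.0251 to 0.173. Lpin1 passed in 1 of 13 (0.95 to 1.86, adjusted p 0.0314 to 0.248), as did Agpat1 (−0.87 to −0.56, 0.0418 to 0.325). Members close to 0 changed sign: Agpat3 to 0.0554 with quantile normalization and, with 1 library left out, to between −0.101 and 0.0865 (0.0184 without WT replicate 2, 0.0437 without WT replicate 3). With 1 library left out Lpin3 lay between −0.0134 (without KO replicate 3; −0.00566 without KO replicate 1) and 0.349, and Dgat1 between −0.386 and 0.0198 (without WT replicate 1; 0.0124 without KO replicate 1). Under each scaling the all-gene median stayed within 0.1 of its value.

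Without the filter on low values, 35 genes passed (17 lower, 18 higher), 30 of them among the 295, with 0 members and 0 genes of the wider lists; 19241 genes then enter the fit, and Agpat2 was at an adjusted p of 0.118. The filter at 5 FPKM called 2 genes of the wider lists, Cebpb lower and Klf15 higher. Leaving out 1 library gave 31 to 370 genes, 0 to 2 members and 0 to 2 genes of the wider lists. The share of lower calls, 45.4% with all libraries, was 25.8% when KO replicate 2 was left out, 29.9% for KO replicate 3 and 55.4% for KO replicate 1. The 2 members were Agpat1 and Agpat2, without WT replicate 1. The cause was not tested, beyond the smaller number of libraries. The DGAT share difference of −7.79 percentage points ran from −13.5 to −1.60.

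WT and KO share replicate numbers. The deviations of same-numbered libraries had correlations of 0.068, 0.043 and 0.043 over the tested genes, under the 0.1 asked of pairs. The other WT and KO pairs had −0.078 to 0.029, so each same-numbered pair was the highest for both of its libraries. These values do not settle whether same-numbered libraries were paired. With the replicate block 167 genes passed (73 lower, 94 higher), 135 of them among the 295, with 0 members (Agpat2 −2.18, limma adjusted p 0.0680) and 1 gene of the wider lists, Klf15. Depth limits Lpin3 most, at an estimated 36.02 to 93.1 reads.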
